A study of Homo sapiens with 18 samples.

Results

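The induced end states of 2 RWPE1 lines were compared directly with each other: the line carrying the repressive MACC construct with tamoxifen, and the line carrying the activating MACC construct with tamoxifen. The comparison took the 6 tamoxifen libraries of these lines, 3 biological replicates each, out of 18 libraries in the series, and left the vehicle libraries out of the contrast. It covered 5816 of the 57773 genes in the table, namely those with at least 10 counts in at least 3 of the 18 libraries.

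RWPE1 is an established line of benign human prostate epithelial cells. MACCs (Modifiers of ARE Containing Chromatin) join the DNA-binding domain of the androgen receptor to ERT2, a modified oestrogen receptor domain that lets the protein enter the nucleus when tamoxifen is present, and to a 3X FLAG tag. The repressive construct also carries KRAB, a domain from zinc finger proteins, and the activating construct carries VP64, a repeated viral activation domain. Another line with the tag alone (neutral) served as a reference. All lines were lentiviral, blasticidin-selected populations with a PGK promoter, so that the groups also differ in the cell population that took up each construct. Cells received tamoxifen, or ethanol as vehicle, for 48 hours. Tamoxifen was at 1.5 uM by the treatment label and at 1.25 uM by the protocol label.

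The androgen receptor binds androgen response elements (AREs), which are 2 inverted hexamers separated by 3 bases, and closely related receptors such as the glucocorticoid receptor bind much the same sequence. KRAB recruits TRIM28 and, through it, histone H3K9 methylation, whereas VP64 recruits coactivators and histone acetyltransferases.

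Total counts were 675593 to 778481 in the repressive libraries and 680596 to 752282 in the activating libraries, a depth at which 0 counts in a library allows a level of up to 3.85 to 4.44 CPM (counts scaled to the library total), taking 3 counts as the floor. ZNF10, a source of KRAB domains, had 6, 16 and 2 counts in the repressive tamoxifen libraries and 0 in each activating library, which places it at least 7.87-fold higher over the group. The ESR1 row held 172 and 110 counts summed over the 3 libraries of each line. Basal epithelial markers summed to 4340 to 5930 CPM in the repressive and 4030 to 4600 CPM in the activating libraries. Luminal markers summed to 1450 to 1560 and 1220 to 1310 CPM. Neuroendocrine, endothelial and immune markers reached at most 7.89, 7.35 and 37.5 CPM. Most counts in the table sit at rows whose exons are overlapped by a gene on the opposite strand. Some of these rows held more counts than the gene they overlap. BEST1 held 279553 counts over the repressive libraries and FTH1, which overlaps it, 1218, while RP5-940J5.9 held 74686 and GAPDH, opposite it, 761. The libraries were stranded and the strand setting of the counting is not given in the sources used here. If it was the reverse of the library's, the counts of such a row would come from the gene opposite it. A gene with such an overlap would then be measured by its opposite row. Rows without an overlap, FKBP5, MT2A, CEBPD, KRT5 and RPL3 among them, would hold only the reads of their gene that fell on the other strand. Which gene of each pair a row measures was not settled, so the opposite gene is given with the named genes that have one, and values are those of the row as labelled.

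To show what an ARE looks like near genes that the results turn on, the GRCh37 genome was searched on both strands for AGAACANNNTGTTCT with at most 1 mismatch, within 50 kb of each gene start. Of the 5619 tested genes with a position in this search, 32.0% had such a match. The matches are printed from the plus strand with 20 bases on each side, and the 15 bases of the match are in capitals. The match shared by LTBR and SCNN1A is at chr12:6485484-6485498, inside introns of both genes and 1280 bases downstream of the LTBR start. The match in ENSG00000256249, the row opposite HCAR3, is at chr12:123172980-123172994 in an intron and 1315 bases downstream of its start. The 2 matches near KRT13 and its opposite row AC019349.5 are at chr17:39639433-39639447, between genes, and chr17:39647410-39647424, in an intron of KRT36. The match nearest to KRT6A is at chr12:52888406-52888420, between genes, at -1372 bases from its start. The match nearest to the TSC22D3 start is at chrX:107011074-107011088 in its own intron. The match near DDIT4, at chr10:74008740-74008754 between genes, has no mismatch.
LTBR and SCNN1A: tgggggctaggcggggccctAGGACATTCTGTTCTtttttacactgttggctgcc
ENSG00000256249: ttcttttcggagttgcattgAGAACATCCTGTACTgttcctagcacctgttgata
KRT13, between genes: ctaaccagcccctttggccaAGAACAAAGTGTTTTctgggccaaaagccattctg
KRT13, KRT36 intron: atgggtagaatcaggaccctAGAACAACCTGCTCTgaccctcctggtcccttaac
KRT6A: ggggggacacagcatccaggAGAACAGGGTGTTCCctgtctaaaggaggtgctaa
TSC22D3: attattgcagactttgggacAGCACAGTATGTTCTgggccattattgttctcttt
DDIT4: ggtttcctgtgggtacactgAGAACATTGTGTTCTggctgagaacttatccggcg

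A match was present near 113 of 329 positioned genes that were higher in the repressive line (34.3%), near 82 of 253 lower genes (32.4%) and near 1602 of 5037 genes that were not called (31.8%), and the differences between these shares were not tested. The median log2 fold change was -0.03 with a match and -0.04 without. An exact match lay near 101 genes, of which 5 were higher and 7 lower, with a median log2 fold change of -0.13. FKBP5 and MT2A, which differed strongly, had no match in this window. The paper describes FKBP5 enhancers with AREs that MACCs occupied in LNCaP prostate cancer cells. The lack of a match in this search therefore does not mean that a gene has no ARE.

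The end states differed at 609 genes (10.5% of those tested, DESeq2, Benjamini-Hochberg adjusted p under 0.05). Of these, 345 were higher in the repressive line (5.93%) and 264 were lower (4.54%). Without adjustment, 1178 genes had p under 0.05. All log2 fold changes are given as repressive minus activating on normalized counts. The difference exceeded 1 on the log2 scale for 170 of the higher and 132 of the lower genes, and it exceeded 2 for 74 and 45. The 3 repressive and 3 activating values did not overlap for 594 of the 609 genes, against 25.4% of all tested genes. Because the calls used the same libraries, this count was largely fixed by the calling. The first principal component of the 6 libraries held 39.5% of the variance and placed the activating libraries between -23.4 and -16.1 and the repressive libraries between 17.2 and 21.8. The second held 17.3% and set repressive replicates 2 (-23.2) and 3 (22.4) apart from each other.

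The split into higher and lower genes depended on how the libraries were scaled. With total counts in place of median-of-ratios size factors, 685 genes passed and 33.3% of them were higher, against 56.7% before, as all log2 fold changes shifted by -0.169. One row moved with this: BEST1, which lies opposite the ferritin heavy chain gene FTH1, took 12.4% to 12.8% of all counts in the repressive libraries and 4.79% to 5.68% in the activating libraries. With total counts taken without the BEST1 row, 616 genes passed, of which 49.8% were higher. None of the 609 genes changed sign with total-count scaling.

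**Figure D1:**
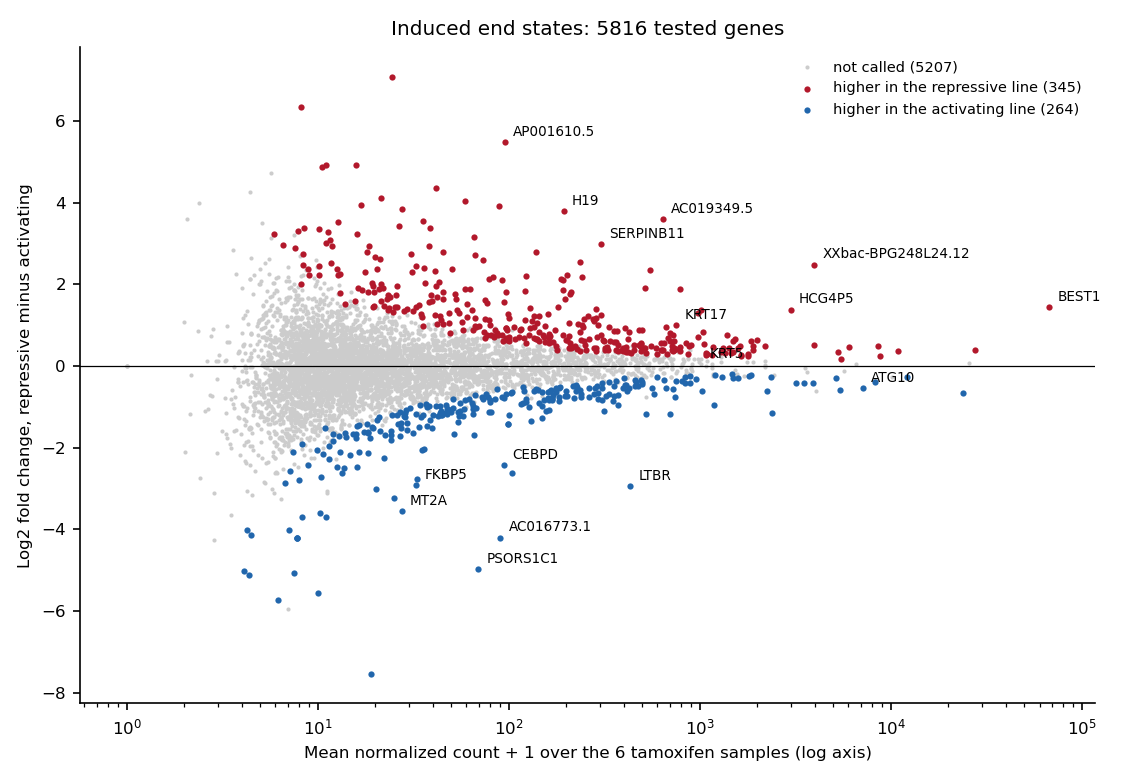
Log2 fold change between the induced lines (y axis, repressive minus activating) against the mean normalized count plus 1 over the 6 tamoxifen samples (x axis, log scale), 1 point per tested gene. Red points are the 345 genes called higher in the repressive line and blue points the 264 called lower; BEST1 is the farthest to the right, and the lowest point is PSCA, whose fitted value rests on no counts in the repressive samples.

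Precision followed depth. Of 1485 genes with a mean of at least 50 normalized counts, 399 were called (26.9%), with a median SE of 0.19. Of 4331 genes below that, 210 were called (4.8%), with a median SE of 0.62. Genes are therefore named mainly from the first set.

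The tested genes included 9 known to respond to steroid receptors through AREs or glucocorticoid response elements. Of these 9, 6 were lower in the repressive line (against 4.54% of all genes) and none was higher. Their median log2 fold change was -2.43, against -0.03 over all genes. FKBP5, an HSP90 co-chaperone that limits steroid receptor signalling, had 5.82, 8.12 and 8.38 normalized counts in the repressive libraries and 60.8, 43.7 and 63.6 in the activating libraries. Its log2 fold change was -2.92 (SE 0.45, adjusted p = 3.64e-09). The neutral line with tamoxifen had 14.5, 11.7 and 24.4, between both groups on average.

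TSC22D3 (GILZ), an anti-inflammatory glucocorticoid target whose row overlaps NCBP2L, had 3.88, 5.8 and 3.14 normalized counts in the repressive libraries and 39.5, 40 and 23 in the activating libraries (log2 fold change -3.01, SE 0.53, adjusted p = 5.01e-07). The neutral values, 51.1, 31.2 and 35.6, overlapped those of the activating line (-0.20 for activating minus neutral, adjusted p = 0.819). MT2A, a metal-binding metallothionein, had 6.79, 3.48 and 2.1 against 40.5, 41.9 and 64.5 (log2 fold change -3.55, SE 0.60, adjusted p = 2.11e-07). MT1X, a second metallothionein, had 1 count over the 3 repressive libraries and 55 over the 3 activating ones, a ratio of 55.9 with a 95% exact counting interval of 9.62 to 2250. ZBTB16, a transcription factor induced by glucocorticoids and opposite ENSG00000289230, was below the filter, with 0, 1 and 0 counts against 9, 6 and 9.

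CEBPD, a transcription factor of acute phase and differentiation responses, had 24.3, 30.2 and 33.5 normalized counts in the repressive libraries and 141, 190 and 141 in the activating libraries (log2 fold change -2.43, SE 0.26, adjusted p = 6.43e-18). The 3 neutral values, 73.2, 65.3 and 67.2, fell between. The sixth lower gene was KLF9, at -1.11. NDRG1 (0.28), NFKBIA (-0.07) and PER1 (-0.96) did not pass.

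LTBR, which encodes the lymphotoxin beta receptor and lies opposite the epithelial sodium channel gene SCNN1A, showed the clearest order of the 3 lines. It had 95.1, 115 and 89.1 normalized counts in the repressive libraries, 296, 300 and 302 in the neutral and 822, 719 and 742 in the activating libraries. The log2 fold change between the end states was -2.94 (SE 0.12, adjusted p = 6.63e-128), and each line also differed from the neutral line (-1.59 for repressive, adjusted p = 6.91e-34, and 1.35 for activating, adjusted p = 2.26e-40). The SCNN1A row moved the same way, with 0, 0 and 11.5 against 27.4, 14 and 24. Its log2 fold change of -2.49 (SE 0.81, adjusted p = 0.0242) did not pass without activating replicate 1 or 3 (adjusted p = 0.0932 and 0.0928) or repressive replicate 1 or 2 (0.116 and 0.121). This is the pair of genes with the intronic ARE match printed above. Of the 7 NF-kB and cytokine genes tested, LTBR alone passed, and the median log2 fold change of the 7 was 0.21.

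PSCA, a prostate stem cell surface antigen opposite JRK, had 0 counts in all 3 repressive libraries and 35, 43 and 35 in the activating libraries. Against a floor of 3 counts over the group it was at least 38.3-fold lower in the repressive line.

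**Figure D2:**
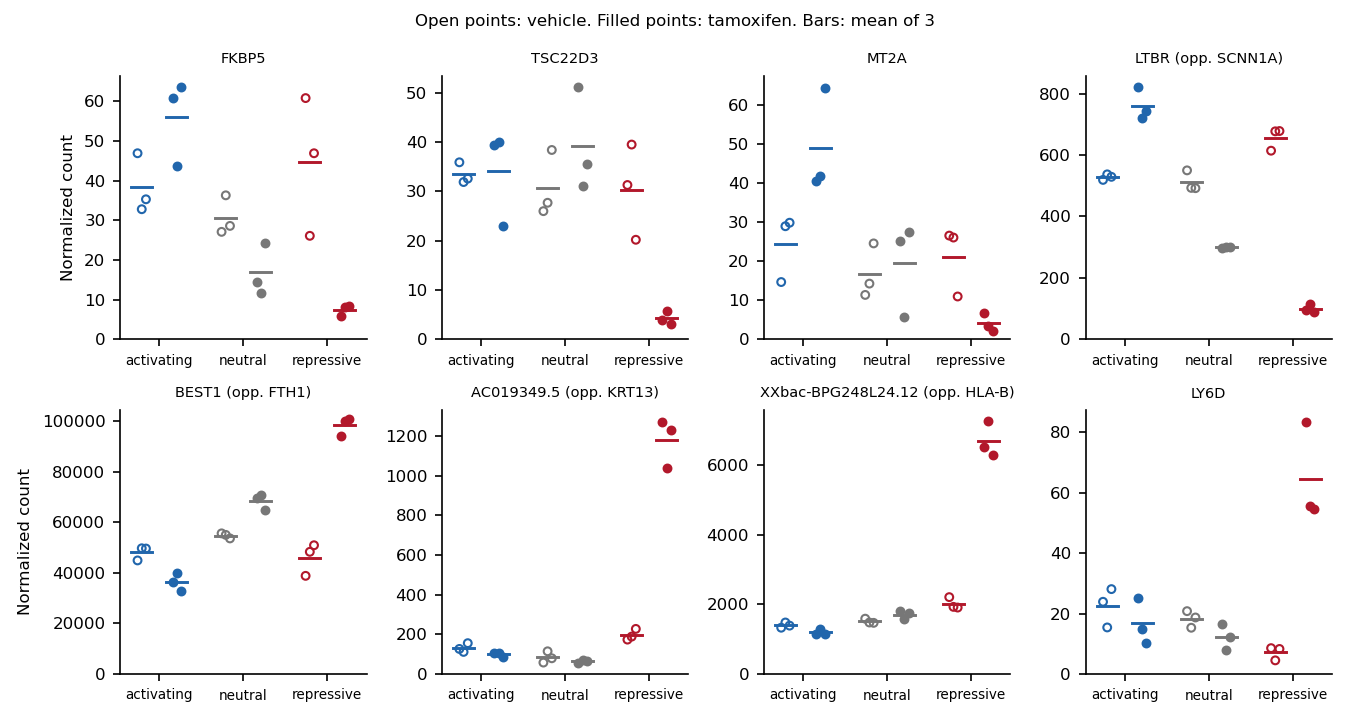
Normalized counts (y axes, each from 0) of 8 genes in the activating, neutral and repressive lines with vehicle (open points) and tamoxifen (filled points), 3 samples per group with the mean as a bar. FKBP5, TSC22D3, MT2A and LTBR have their lowest mean in the repressive line with tamoxifen, and the 4 genes of the lower row have their highest mean there.

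Of 40 interferon-stimulated genes, 15 were tested. Among these, 8 were higher in the repressive line (against 5.93% of all genes) and none was lower. Of the 15, 8 reached the count filter only through the repressive tamoxifen libraries, so that their direction was partly fixed by the filter. The median log2 fold change of 2.01 is a description of the 15 that passed it. MX1, a GTPase that blocks virus replication and whose row overlaps TMPRSS2 on the other strand, had 47.6, 34.8 and 33.5 normalized counts in the repressive libraries and 3.04, 1.86 and 1.84 in the activating ones (log2 fold change 4.11, SE 0.84, adjusted p = 3.36e-05). The row opposite MX1, AP001610.5, held more counts: 176, 211 and 166 against 5.07, 3.72 and 3.69 (log2 fold change 5.48, SE 0.48, adjusted p = 1.93e-27). The neutral values of AP001610.5 were 24.1, 12.7 and 13.2. IFIT3 (opposite LIPA), RSAD2 (opposite CMPK2) and IFI6, effectors induced by interferon, were near 0 in the activating line. IFIT3 had 56 counts over the repressive and 2 over the activating libraries, a ratio of 27.6 (95% exact counting interval 7.28 to 233). RSAD2 had 53 and 2, a ratio of 26.1 (6.87 to 221). IFI6 had 15.5, 44.1 and 29.3 normalized counts against 2.03, 2.79 and 0.921. With total-count scaling, 5 of these 8 genes passed, 1 did not, and IFI27 and RSAD2 had no adjusted p. The row opposite RNF213, CTD-2047H16.4, was higher by 1.83 on the log2 scale (SE 0.24, adjusted p = 1.11e-12), while the RNF213 row itself did not pass (0.32).

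Of 12 tested genes of MHC class I antigen presentation, 5 were higher (against 5.93% of all genes) and none was lower. Their median log2 fold change was 0.75. Among 9 rows opposite such genes, 6 were higher, with a median of 1.38. Over all rows opposite a protein-coding gene, 232 of 2567 were higher. HLA-B, a class I heavy chain, had 149, 94 and 131 normalized counts against 22.3, 24.2 and 15.7. Its log2 fold change was 2.60 (SE 0.33, adjusted p = 4.54e-13). The row opposite it, XXbac-BPG248L24.12, had 6520, 7290 and 6310 against 1160, 1280 and 1160 (2.48, SE 0.08, adjusted p = 5.27e-231). Its neutral values of 1800, 1570 and 1760 lay between, closer to the activating line.

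IRF1, a transcription factor that drives class I genes, opposite C5orf56, was higher by 2.14 on the log2 scale, HLA-C by 1.57 and TAP1, a subunit of the peptide transporter, by 1.53. The rows opposite HLA-F (HCG4P11) and TAP1 (TAPSAR1) were higher by 2.36 and 1.88. B2M (0.97), HLA-E (0.54) and PDIA3 (-0.23) did not pass. Class I genes are near-identical in parts, so reads may be split among them. Immune cell markers summed to 15.8 to 36 CPM in the repressive and 23.9 to 37.5 CPM in the activating libraries, ranges that overlapped.

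Squamous differentiation genes moved in both directions. Of 12 tested, 6 were higher (against 5.93% of all genes) and 1 was lower (against 4.54%). The median log2 fold change of the 12 was 0.41. Of the 12, 1 reached the count filter only through the repressive and 1 only through the activating tamoxifen libraries. The direction of these was partly fixed by the filter. Among the 7 of these without an opposite overlap, 2 were higher and 1 was lower, and the median was -0.80. Among 7 rows opposite squamous genes, 3 were higher and 2 were lower, with a median of -0.02. Over all 2567 rows opposite a protein-coding gene, 232 were higher and 120 lower. The KRT13 row, a keratin of suprabasal squamous cells, had 82 counts over the repressive and 3 over the activating libraries, a ratio of 26.9 (95% exact counting interval 8.89 to 133). The row opposite it, AC019349.5, had 1270, 1040 and 1230 normalized counts against 103, 106 and 86.6 (3.59, SE 0.16, adjusted p = 1.16e-101), and the neutral line was lowest at 56.8, 69.2 and 66.1. SERPINB11, a serpin whose row lies opposite SERPINB3, had 441, 692 and 477 against 52.7, 77.2 and 71.9 (2.99, SE 0.23, adjusted p = 2.92e-37).

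TGM1, the transglutaminase that cross-links the cornified envelope, was higher by 2.78 (SE 0.76, adjusted p = 0.00399). LY6D, a surface protein of squamous and basal cells, was higher by 1.96, with 83.5, 55.7 and 54.5 against 25.3, 14.9 and 10.1. Its opposite row RP11-706C16.8 was higher by 2.79, with 250, 216 and 253 against 34.5, 39.1 and 30.4. KRT6A, a keratin of activated keratinocytes, went the other way: 28.1, 37.1 and 27.2 against 108, 83.7 and 107 (-1.70, SE 0.25, adjusted p = 1.40e-09). The row opposite the calmodulin-like gene CALML3, RP11-116G8.5, was also lower, with 808 ± 48.7 normalized counts against 1560 ± 105 (mean ± SD, n = 3) and a log2 fold change of -0.95 (SE 0.12). The corneodesmosin gene CDSN was higher by 1.11 (adjusted p = 8.69e-06), while its opposite row PSORS1C1 was lower (-4.97) and is described below.

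Of 23 basal genes tested, 4 were higher (against 5.93% of all genes) and none was lower, with a median of 0.38. Among the higher genes were the keratin KRT17 (opposite ENSG00000289252, 1.01, SE 0.12), the hemidesmosome integrin ITGB4 (0.99, SE 0.22) and COL17A1, a hemidesmosome collagen (0.73, SE 0.17). KRT17 had 1160, 927 and 921 normalized counts against 524, 456 and 520, with neutral values of 838, 808 and 866. The defining basal keratins KRT5 and KRT14 had log2 fold changes of 0.04 (SE 0.11) and 0.04 (SE 0.13), with overlapping groups. TP63, the master regulator of basal cells, had -1.41 (SE 0.57, adjusted p = 0.107) at 10.7, 5.8 and 4.19 against 20.3, 13 and 22.1 normalized counts; with total-count scaling its adjusted p was 0.0495.

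Of 11 luminal genes, 2 were higher (against 5.93% of all genes) and PSCA was lower (against 4.54%). Their median of 0.07 became -0.09 with total-count scaling. Of the 11, 1 reached the count filter only through the repressive tamoxifen libraries, so that its direction was partly fixed by the filter. MUC1, an apical mucin, was higher by 3.22 (SE 0.76, adjusted p = 5.22e-04) at 28.1, 29 and 24.1 against 6.08, 2.79 and 0. KRT8, whose row lies opposite its keratin partner KRT18, was higher by 0.60 (SE 0.08). KRT18 itself had 0.07 (SE 0.40) and did not pass.

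**Figure D3:**
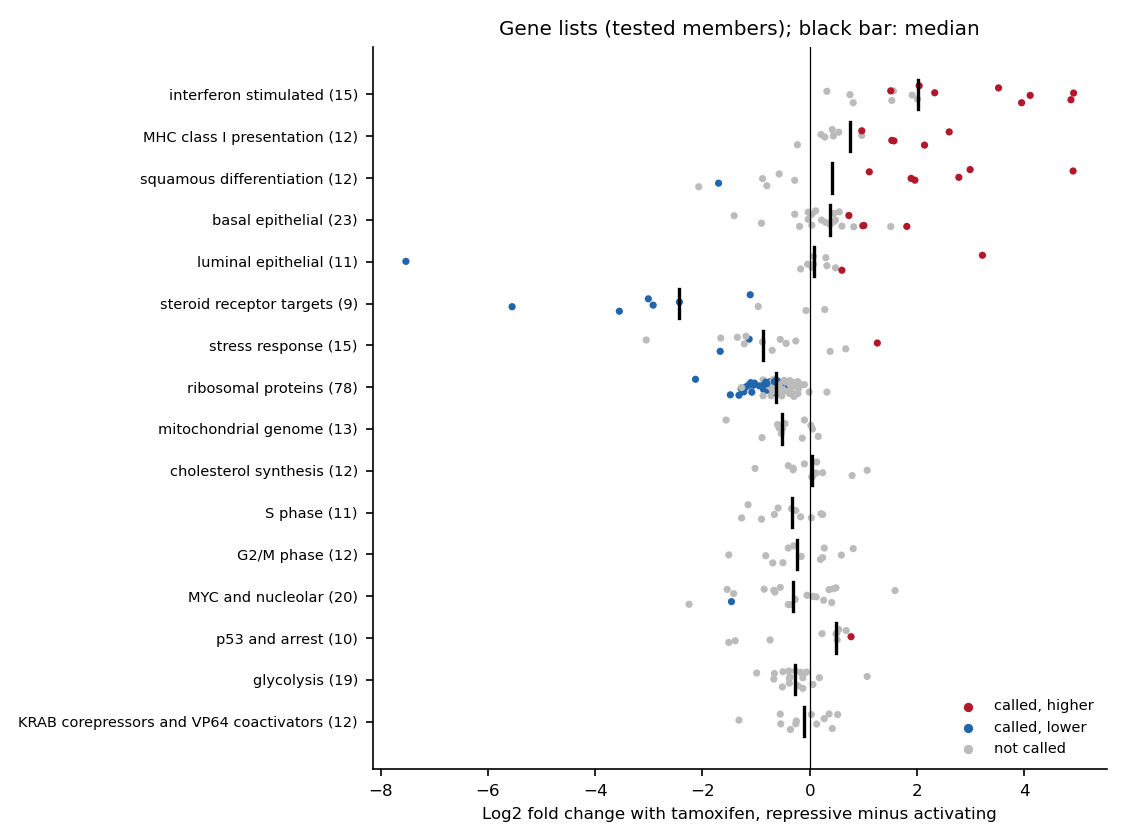
Log2 fold change with tamoxifen (x axis, repressive minus activating) of each tested member of 16 gene lists (rows, number tested in parentheses), red for called higher, blue for called lower, grey for not called, with the median as a black bar. The 15 tested interferon-stimulated genes are right of 0, 8 of which reached the count filter only through the repressive samples, and 77 of 78 ribosomal protein genes are left of 0.

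BEST1, opposite FTH1, was the most abundant row. It had 94000, 100000 and 101000 normalized counts against 36200, 39800 and 32900 (1.44, SE 0.08, adjusted p = 6.72e-73). The neutral line lay between at 69500, 70600 and 65000. The FTH1 row, for the iron-storing ferritin heavy chain, was higher by 1.26 (SE 0.16), with 469, 454 and 360 against 184, 172 and 180. ACO1, a cytosolic aconitase that as IRP1 represses ferritin translation when iron is low, was higher by 3.15 (SE 0.34, adjusted p = 1.80e-18), with 96.1, 129 and 124 against 13.2, 12.1 and 13.8. Its neutral values of 56.8, 44.8 and 31.5 also lay between both groups.

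Of the 15 stress genes, FTH1 was the 1 higher gene (against 5.93% of all genes), and DDIT3 and DDIT4 were lower (against 4.54%). The median was -0.88. FTL, the ferritin light chain, had -0.88 (adjusted p = 0.294). DDIT4, an inhibitor of mTORC1 induced by glucocorticoids and hypoxia, had 28.1, 44.1 and 28.3 against 76, 67.9 and 74.6 (-1.13, SE 0.26, adjusted p = 3.70e-04). DDIT3 (CHOP), an endoplasmic reticulum stress factor opposite MARS, had -1.67 (SE 0.58, adjusted p = 0.0403) on means of 5.35 and 16.8, and did not pass without activating replicate 1 or 3 (adjusted p = 0.0697 and 0.126) or repressive replicate 1 or 2 (0.158 and 0.0742). The row opposite the autophagy receptor SQSTM1, C5orf45, was higher by 0.50 (SE 0.09).

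The imprinted neighbours IGF2, a growth factor with IGF2-AS on the other strand, and H19, a long non-coding RNA, were higher together. H19 had 382, 376 and 322 normalized counts against 30.4, 22.3 and 25.8 (3.79, SE 0.27, adjusted p = 1.19e-40). IGF2 had 154, 157 and 182 against 16.2, 10.2 and 6.45 (3.92, SE 0.40, adjusted p = 1.72e-20). Neutral and activating values overlapped for both genes. FN1, the matrix protein fibronectin, was higher by 3.42 (SE 0.56, adjusted p = 7.02e-08) at 58.2, 47.6 and 35.6 against 1.01, 4.65 and 7.37. Of 5 mesenchymal and fibroblast genes tested, FN1 alone passed (against 10.5% of all genes), and the median was 0.81. SPARC (1.20), TWIST1 (0.81), VIM (0.35) and ZEB1 (-0.81) did not pass. All 3 rows opposite fibroblast genes were higher, against 232 of 2567 rows opposite a protein-coding gene. VIM-AS1 and RP11-124N14.3, both opposite vimentin, were higher by 0.46 and 0.47, and ACTA2-AS1 by 1.74. The last of these did not pass without activating replicate 3 (adjusted p = 0.199), repressive replicate 2 (0.107) or 3 (0.113), nor with total-count scaling (1.56, adjusted p = 0.0538). Both rows opposite vimentin differed more with vehicle than with tamoxifen. Fibroblast markers summed to 204 to 334 CPM in the repressive and 184 to 187 CPM in the activating libraries, with 8 and 9 of the 16 markers at 0 in all 3 libraries. Whether a change in cell mixture has a part in this was not tested, and in bulk RNA fewer cells of a type and less RNA per cell cannot be told apart.

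A few further higher rows complete the named set. C7orf49 (CYREN), a regulator of DNA end joining opposite RP11-134L10.1, had 106, 94 and 127 against 4.05, 11.2 and 4.61 (4.03, SE 0.45). ENSG00000256249, opposite the hydroxycarboxylic acid receptor gene HCAR3, had 407, 353 and 449 against 80.1, 54.9 and 71.9 (2.55, SE 0.18). ARFRP1, a small GTPase opposite ZGPAT, was less even, with 131, 146 and 63.9 against 14.2, 22.3 and 15.7 (2.71, SE 0.72, adjusted p = 0.00322). The row opposite PLAU, the urokinase gene, C10orf55, was also higher, by 2.11 (SE 0.21).

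**Figure D4:**
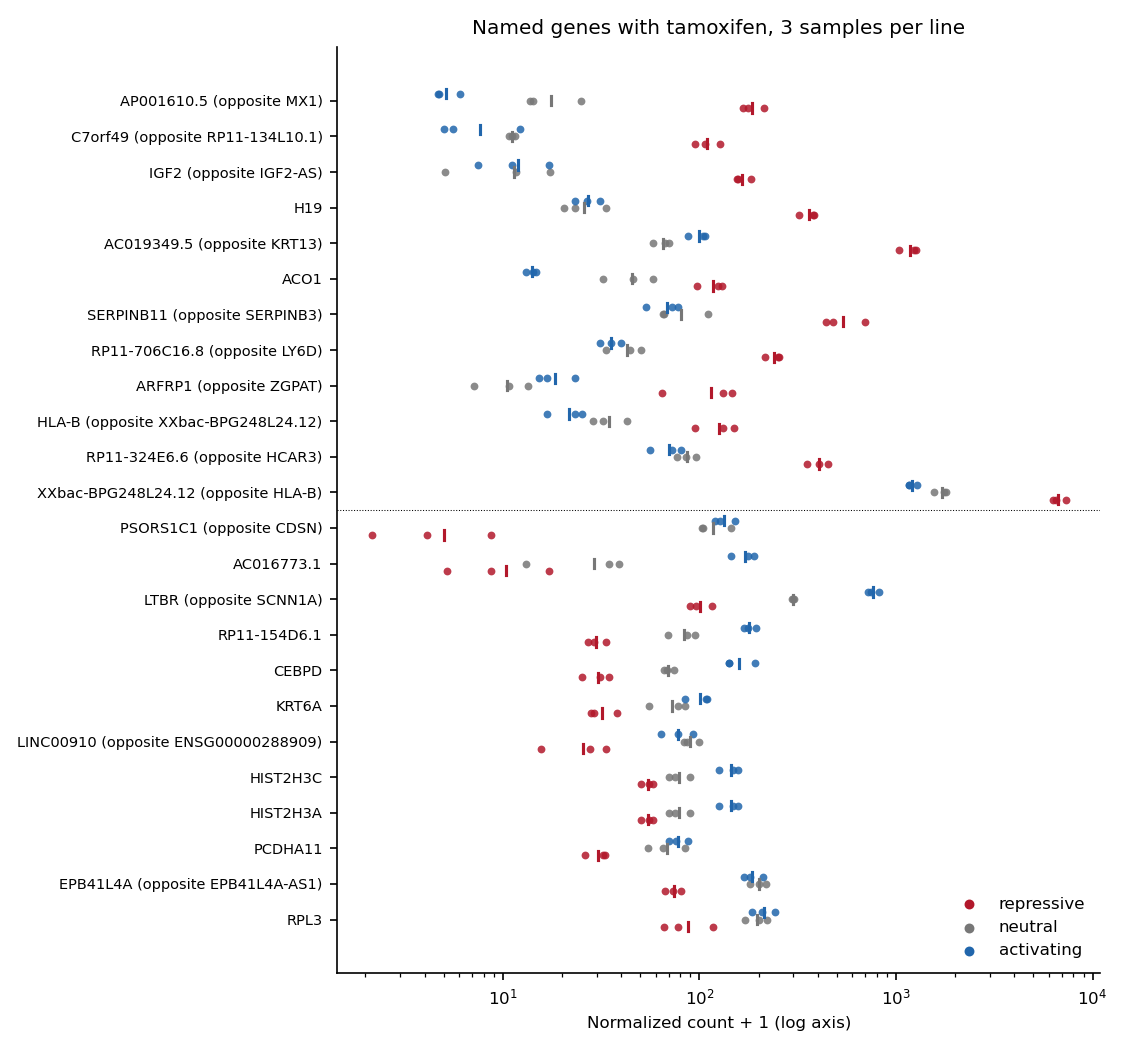
Normalized counts plus 1 (x axis, log scale) of the 24 genes with the largest differences, 3 tamoxifen samples per line, with the mean as a bar; the 12 genes above the dotted line are higher in the repressive line and the 12 below are lower. Lack of overlap between the repressive and activating points was part of the rule that chose the 24 genes; for LTBR the neutral points sit apart from both.

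Of 78 ribosomal protein genes tested, 31 were lower in the repressive line (against 4.54% of all genes). None was higher and 47 did not pass. The log2 fold change was negative for 77, with a median of -0.62 (-0.78 with total-count scaling). RPL3, a protein of the large subunit, had 117, 76.6 and 65 normalized counts against 207, 185 and 241 (-1.28, SE 0.19, adjusted p = 1.38e-09). RPL7 had -1.48 (SE 0.36, adjusted p = 8.75e-04). RPS4X had -1.32 (SE 0.37, adjusted p = 0.00534) and did not pass without activating replicate 3 (adjusted p = 0.0972). RPL22, opposite RNF207, had -2.13 (SE 0.72, adjusted p = 0.0341) and did not pass without activating replicate 1 or 2 (adjusted p = 0.192 and 0.0813) or repressive replicate 3 (0.186).

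Deeper rows opposite ribosomal protein genes moved the same way. ATG10, opposite RPS23, had 5670, 5410 and 6340 against 8400, 8660 and 8230 (-0.54, SE 0.05, adjusted p = 1.11e-20). SH3D19, opposite RPS3A, had 4180, 4020 and 4750 against 6230, 6630 and 6510 (-0.58, SE 0.08, adjusted p = 1.41e-12). Of 16 rows opposite such genes, 6 were lower, with a median of -0.49. Over all rows opposite a protein-coding gene, 120 of 2567 were lower. CTD-2514K5.2, opposite RPL38, had -1.06 (SE 0.28). KANK3, opposite RPS28, had -1.67 (SE 0.53) but did not pass without activating replicate 2 (adjusted p = 0.108) or repressive replicate 1 or 3 (0.0873 and 0.175).

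The share of all counts at rows without an opposite-strand overlap moved with the group. It was 8.2% to 9.39% in the repressive and 10.7% to 11.4% in the activating libraries, and the share at ribosomal protein rows was 0.748% to 0.906% and 1.34% to 1.43%. The median log2 fold change was -0.16 over all rows without an opposite overlap and 0.01 over rows with one. In a fit scaled on the rows without an opposite overlap, 13 of 51 ribosomal protein genes were lower, with a median of -0.53, against 21 of the 51 before, with a median of -0.66.

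The other lower named genes had mixed roles. PSORS1C1, opposite the corneodesmosin gene CDSN, had 7.76, 1.16 and 3.14 against 151, 126 and 119 (-4.97, SE 0.46, adjusted p = 2.07e-24), with neutral values of 144, 102 and 103. AC016773.1 had 7.76, 16.2 and 4.19 against 176, 189 and 144 (-4.20, SE 0.40) and RP11-154D6.1 had 28.1, 32.5 and 26.2 against 175, 167 and 193 (-2.63, SE 0.25). For both, the neutral line lay between on average, and no position was matched in the annotation. HIST2H3C and HIST2H3A, copies of a histone H3 gene, had the same values in every library and share reads (-1.42, SE 0.22). LINC00910, opposite ENSG00000288909, had -1.66 (SE 0.29), PCDHA11, one of a cluster of protocadherin genes that share exons, -1.38 (SE 0.25), and EPB41L4A, opposite EPB41L4A-AS1, -1.34 (SE 0.18).

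Proliferation and metabolic lists gave few or no calls. Only 11 of 32 S phase and 12 of 36 G2/M genes were tested, with means of at most 42.5 and 42.7 normalized counts. Of all genes with a mean under 50, 4.8% were called and the median SE was 0.62. A lack of calls in these 2 lists therefore does not show equal levels. No gene of 11 S phase genes (median -0.34), 12 G2/M genes (-0.23), 19 glycolysis genes (-0.27) or 12 KRAB corepressors and VP64 coactivators (-0.11) passed in DESeq2. Without adjustment 1, 0, 1 and 0 genes had p under 0.05, and edgeR called 0 in each list. MKI67, the proliferation antigen, had -0.30 (SE 0.36) and MYC, opposite CASC11, -0.05 (SE 0.60). The cell cycle inhibitor CDKN1A, opposite DINOL, had 0.50 (SE 0.66). Of 20 MYC and nucleolar genes 1 was lower, NOLC1 at -1.46 (SE 0.51, adjusted p = 0.0438), and it passed in only 1 of the 6 fits that left out a library, that without activating replicate 2, with adjusted p up to 0.201 in the others. Of 10 p53 and arrest genes, SFN (14-3-3 sigma) was higher by 0.77 (SE 0.19), and the row opposite MDM2, RP11-611O2.5, by 1.01 (SE 0.16). None of 13 mitochondrial protein genes passed in DESeq2, with a median of -0.51, against 2 at an unadjusted p under 0.05 and 1 in edgeR.

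Of 4 rows opposite S phase genes, 3 were called, and of 4 opposite G2/M genes 0 were, against 10.5% of all genes. ENOSF1, opposite thymidylate synthase TYMS, was higher by 0.56 (SE 0.10), and GSE1, opposite the replication gene GINS2, had -1.22 (SE 0.27). INTS8, opposite CCNE2, had -0.46 (SE 0.16, adjusted p = 0.0336) and passed only when activating replicate 1 was the library left out, with adjusted p of 0.0551 to 0.317 without any other. TBPL1, opposite the sugar transporter gene SLC2A12, was higher by 1.43 (SE 0.24). None of 12 cholesterol synthesis genes passed in DESeq2, against 2 at an unadjusted p under 0.05 and 0 in edgeR, and their median of 0.04 became -0.13 with total-count scaling. The row opposite HMGCS1, the synthase that makes the HMG-CoA precursor of cholesterol, was higher by 1.30 (CTD-2636A23.2, SE 0.13), with 1270, 1460 and 1440 against 525, 477 and 693. RUSC1-AS1, opposite FDPS, had 0.34 (SE 0.10, adjusted p = 0.0133). It did not pass with total-count scaling (0.17, adjusted p = 0.35) or without activating replicate 1 or 2 (adjusted p = 0.0973 and 0.114).

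The same 2 lines were compared with vehicle, to see which differences existed before induction. With vehicle, 100 genes differed (1.72%), or 65 without activating vehicle replicate 3. Of the 100 genes, 66 also differed with tamoxifen, which is 66.0% of the vehicle genes and 10.8% of the 609. The direction was the same for 60 genes. PSORS1C1 had a log2 fold change of -4.76 with vehicle (adjusted p = 2.26e-23) beside -4.97 with tamoxifen. IGF2 and H19 were already higher in the repressive line with vehicle, by 2.45 and 1.75. FN1 was higher by 1.80 and HIST2H3C lower, at -0.94. VIM-AS1 and RP11-124N14.3 differed more with vehicle (1.02 and 0.93) than with tamoxifen. By contrast, FKBP5 (0.21), TSC22D3 (-0.14), MT2A (-0.21), CEBPD (0.26) and BEST1 (-0.06) did not pass with vehicle.

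The 6 genes with the opposite direction were chosen after their values were seen. LTBR was higher in the repressive line with vehicle, at 614, 677 and 678 normalized counts against 519, 537 and 529 (0.31, adjusted p = 0.0253), and lower with tamoxifen. PSCA was higher with vehicle too, at 25.6, 31.4 and 26.6 against 6.44, 7.72 and 8.15. LY6D and its opposite row RP11-706C16.8 were lower with vehicle (-1.67 and -1.33) and higher with tamoxifen. DEAF1, opposite EPS8L2, had -0.68 with vehicle and 0.64 with tamoxifen. CTC-251D13.1, opposite FAT2, had -0.54 and 0.82. The difference of the tamoxifen effects between the lines, tested as an interaction, passed for 247 genes in all (4.25%). It is the end-state difference minus the vehicle difference and shares the libraries of both. It passed for all 6 genes above, an outcome largely fixed in advance by choosing genes with called differences of opposite sign.

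**Figure D5:**
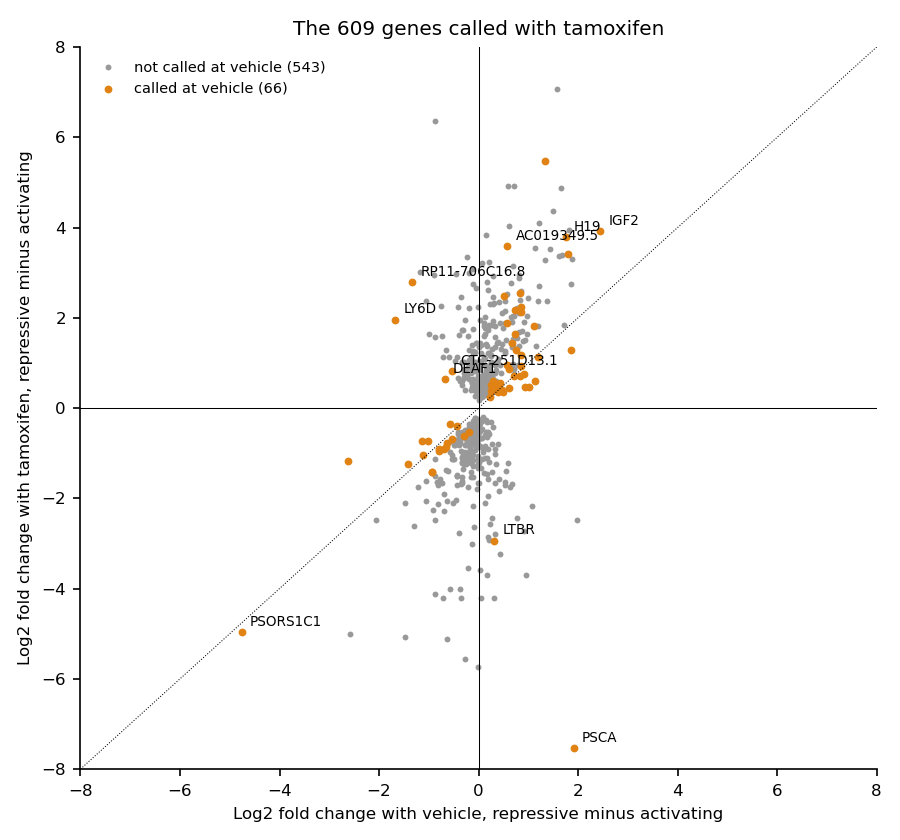
Log2 fold change between the lines with tamoxifen (y axis) against that with vehicle (x axis), both repressive minus activating, for the 609 genes called with tamoxifen; orange points are the 66 also called with vehicle, and the dotted line marks equal values. PSORS1C1 lies close to the line, while LTBR, PSCA, LY6D, RP11-706C16.8, DEAF1 and CTC-251D13.1 lie in the quadrants of opposite sign; the PSCA value rests on no counts in the repressive tamoxifen samples.

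The neutral line with tamoxifen placed each end state. Against it, 668 genes differed in the repressive line (11.5%) and 180 in the activating line (3.09%), and these comparisons share libraries with each other and with the end-state comparison. The neutral mean lay between both end states for 232 of the 345 higher and 172 of the 264 lower genes. Over all 345 and 264 genes, the neutral line was nearer to the activating line on the log2 scale for 75.9% and 77.3%. LTBR, CEBPD, AC016773.1 and RP11-154D6.1 passed against the neutral line in both comparisons, each with opposite signs. ACO1 also did, with 1.38 for repressive (adjusted p = 1.97e-05) and -1.77 for activating (adjusted p = 2.79e-05). BEST1 had 0.53 and -0.91, both past the threshold. KRT17 passed only in the activating line against neutral (-0.74, adjusted p = 2.78e-07, against 0.26, adjusted p = 0.137 in the repressive line), and whether these 2 differences differ in size was not tested. H19, KRT6A and RPL3 passed in the repressive line against neutral and not in the activating line, and here too the difference was not tested.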

How the data were processed

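RNA-seq libraries were made from RWPE1 lines carrying the neutral, repressive or activating MACC, with vehicle or tamoxifen (6 groups of 3 biological replicates). The authors prepared stranded mRNA libraries, ran the nf-core/rnaseq workflow (GRCh37) and deposited Salmon 1.9.0 expected counts, which are estimated read counts per gene, not scaled for depth or length. Their strandedness setting is not given in the sources used here. Of the deposited expected counts, 1.1% were not whole, and all were rounded.

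One DESeq2 model (1.42.0, R 4.3.3) with a mean per group was fitted to all 18 libraries over the 5816 genes that reached 10 counts in 3 or more libraries, which held 97.6% of all counts. It used median-of-ratios size factors, two-sided Wald tests, independent filtering and Benjamini-Hochberg adjustment over all genes. Fold changes are unshrunken. Where a group had 1 to 3 counts, the ratio is given with an exact binomial (Clopper-Pearson) interval; intervals and floors cover counting error only. Principal components used the 500 most variable genes on log2(normalized count + 1). Replicate pairs differed by more than sampling noise in a chi-square test, so each library was 1 replicate. No batch is given in the labels.

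Gene positions and strands came from GENCODE mapped to GRCh37, in which 96.1% of the genes were matched. Named genes are the 12 higher and 12 lower genes with the largest absolute log2 fold change among those with an adjusted p under 0.05, a mean of at least 50 normalized counts over the 6 tamoxifen libraries and no overlap between groups, plus up to 4 called members per list and direction and 14 defining genes. Other list members named to complete a count were chosen after their values were seen. Members, lists and tests were chosen with earlier results of these data known, so that list counts are descriptions. Alternatives were edgeR 4.0.16, limma-voom 3.58.1, other scalings, filters, leaving out each library, and a replicate block. The fits were tested on simulated data. Results for a few list members are not reported here.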

Additional observations from a re-analysis of the deposited data

Results flagged for a closer look

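The effect of tamoxifen differed between the repressive and the activating line, by the interaction test in DESeq2, at 247 genes in all and at 42 of the 87 named ones. Values here are differences of the log2 tamoxifen effects, repressive minus activating line, and no cause was tested. Among interferon and class I rows they were 4.14 for AP001610.5, 1.63 for CTD-2047H16.4, 1.73 for HLA-B, 1.96 for XXbac-BPG248L24.12, 1.61 for IRF1, 1.24 for HLA-C, 1.93 for HCG4P11 and 1.30 for TAPSAR1.

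Squamous and basal rows gave 3.00 for AC019349.5, 3.19 for SERPINB11, 4.12 for RP11-706C16.8, 3.63 for LY6D, 1.12 for KRT17 and -1.27 for KRT6A. Steroid receptor targets gave -3.13 for FKBP5, -2.87 for TSC22D3, -3.34 for MT2A and -2.69 for CEBPD. LTBR had -3.25, and for PSCA, with no counts in the repressive tamoxifen libraries, only the adjusted p of 1.74e-10 is given.

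BEST1 gave 1.50, FTH1, opposite it, 1.37 and ACO1 2.45. Ribosomal rows gave -1.16 for RPL3, -0.45 for SH3D19 and -0.34 for ATG10. Rows opposite vimentin went the other way from the end state, at -0.56 for VIM-AS1 and -0.46 for RP11-124N14.3, since they differed more with vehicle. Of the remaining rows, the higher ones were C7orf49 (3.43), H19 (2.03), ENSG00000256249, opposite HCAR3, (1.71), C10orf55 (1.63), CTD-2636A23.2 (1.04), SFN (0.93) and RP11-611O2.5 (1.30). The lower ones were AC016773.1 (-3.49), RP11-154D6.1 (-2.54), GSE1 (-1.82), LINC00910 (-1.33) and EPB41L4A (-1.03).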

How the results depend on the processing

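The number of genes that differed between the end states was 578 in edgeR, 523 in limma-voom, 606 with TMM size factors in DESeq2 (chosen after seeing the data, like the scaling without BEST1), 656 without a filter on low counts and 522 when only the 6 tamoxifen libraries were fitted. In a separate fit of the 1807 genes with no opposite-strand overlap, scaled on these alone, 104 differed. For the vehicle comparison and the interaction the counts there were 6 and 40. The share called was 5.76%, 0.332% and 2.21% there, against 10.5%, 1.72% and 4.25% over all genes in the main fit. The 2 fits also differ in scaling, and the cause was not tested. In the main fit, 51 of the 1807 were higher and 87 lower in the end states. For vehicle these counts were 4 and 9, and for the interaction 23 and 27. With an absolute log2 fold change above 1 required as well, 302 of the 609 main calls remained by definition. Leaving out 1 library gave 464 to 540 genes for the end states and 65 to 107 with vehicle (65 without activating vehicle replicate 3), and of the 609 genes 332 passed in all 6 such fits, 254 missed the threshold in at least 1, and 23 had no adjusted p in some and missed it in none. None changed sign.

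No named gene that was called changed sign, but with total-count scaling the higher share of the end-state calls went from 56.7% to 33.3% and the medians of the luminal and cholesterol lists changed sign. Over 85 tested named genes, 33 of the alternative values missed the threshold, for 9 genes, and 2 newly passed it (TP63 with total counts, ESR1 without repressive replicate 1). For 8 low-count genes (MT1X, MX1, KRT13, TGM1, MUC1, IFIT3, RSAD2 and IFI6) some fits gave no adjusted p. The replicate block gave 578 genes, and NOLC1 then had an adjusted p of 0.0534. Deviations of same-numbered repressive and activating libraries correlated at 0.0733, 0.0857 and 0.00642, so the numbers were not taken as pairs. Differently numbered libraries correlated at -0.123 to 0.0383. Repressive replicates 1 and 2 correlated best with the activating replicate of the same number, and repressive replicate 3 with activating replicate 1 (0.0378).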

Other observations

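ANO1-AS1, the row opposite the chloride channel gene ANO1, was chosen after its values were seen and lies below the mean count required of named genes. It had 47.6, 47.6 and 44 normalized counts in the repressive libraries and 0, 0.93 and 0 in the activating libraries with tamoxifen (adjusted p = 1.16e-06).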
